A study of Bos taurus with 6 samples.

Results

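The genes described here encode proteins that release long-chain fatty acids from blood lipoproteins, carry them across the cell membrane and bind them inside the cell. They are LPL, GPIHBP1, CD36, SLC27A1, SLC27A3, SLC27A4, CAV1, FABP3, FABP4 and FABP5, chosen by gene symbol. All 10 were found in the mRNA count table of 25444 genes. The mRNA came from the intramuscular fat (IMF) of male Chinese Qinchuan cattle, a beef breed, and the IMF was dissected out of the sternomandibularis, a neck muscle. Steers had been castrated surgically at 6 months and bulls were left intact. Both groups were weaned at 3 months, received the same diet and were slaughtered at 24 months. By the study's methods all animals had the same sire. RNA of each group was pooled in equal amounts into 1 library, from 6 animals according to the series design and from 3 according to the sample labels. The design asks how castration changes gene expression in IMF.

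Fat cells obtain fatty acids from circulating triglycerides by a chain of steps. Lipoprotein lipase (LPL) is made by adipocytes and muscle cells, is moved to the capillary wall by GPIHBP1, an endothelial anchor protein, and cleaves triglycerides there. CD36 and caveolin 1 (CAV1), the coat protein of caveolae, take part in uptake at the membrane. Several fatty acid transport proteins of the SLC27 family also take part, and several have acyl-CoA synthetase activity. Fatty acid-binding proteins (FABPs) then carry the lipid through the cytosol, with FABP4 as the form of adipocytes and macrophages, FABP5 as a form shared by many cell types and FABP3 as the form of heart and skeletal muscle.

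The libraries held 12677375 counts in steers and 9868415 in bulls. Counts were divided by size factors (1.04 for steers and 0.959 for bulls, the median-of-ratios method) and are called normalised counts below. For each of the 17752 genes that had a count, a two-sided exact binomial test set the pair of counts against the share the size factors give, and p-values were adjusted by Benjamini-Hochberg over these genes. Calls needed both a change over 2-fold (log2 fold change beyond 1 in either direction) and an adjusted p below 0.05. Each group was a single pool without a replicate, so the test compares these 2 libraries and not the conditions, and the 95% intervals cover counting error only. Over all genes 13.2% were called, 4.66% upregulated in steers and 8.50% downregulated. Upregulated genes were 35.4% of all calls, 21.1% with scaling by total counts and 18.0% with scaling by the study's qRT-PCR reference genes. Fewer cells of a type and less RNA per cell cannot be told apart in such bulk samples.

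Of the 10 genes, LPL was called upregulated in steers, and SLC27A1, SLC27A3, FABP4 and FABP5 were called downregulated. The remaining 5 (GPIHBP1, CD36, SLC27A4, CAV1 and FABP3) were not called. The called shares, 1 of 10 up and 4 of 10 down, stand beside shares of 4.66% and 8.50% over all genes, and of 3.66% and 7.67% over the 11451 genes with at least 65 counts, as many as GPIHBP1. These 10 genes were chosen with earlier results of these data known, LPL and FABP4 among them. Of the 9 genes with at least 10 counts over both libraries, 7 had a log2 fold change below 0. Their median was -0.52, against 0.01 over the 14540 genes with as many counts.

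**Figure D1:**
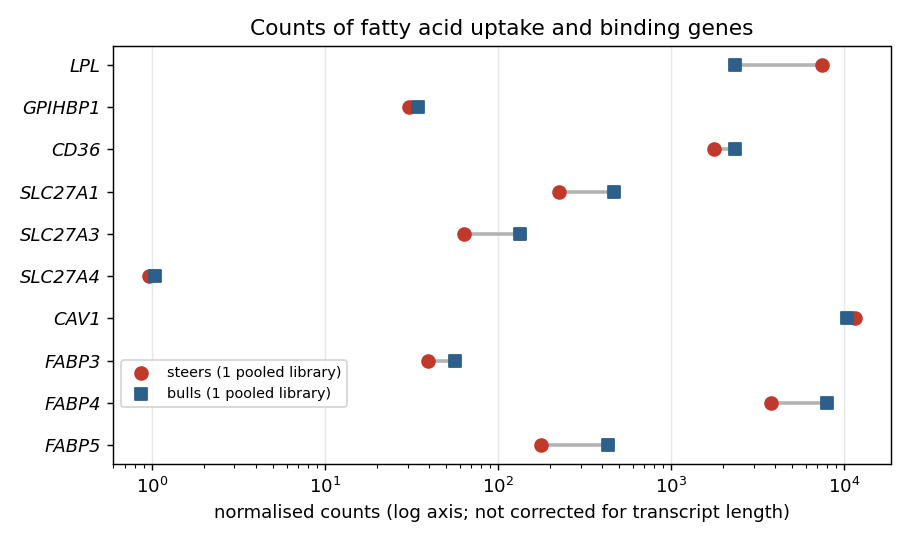
Normalised counts (horizontal log axis, not corrected for transcript length) of each gene in the pooled library of steers (circles) and of bulls (squares), with a grey line joining the pair. LPL is the only gene with a wide gap toward steers (7487 against 2350), while SLC27A1, SLC27A3, FABP4 and FABP5 lie lower in steers.

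LPL hydrolyses the triglycerides of chylomicrons and very low density lipoproteins. It had 7811 counts in steers and 2253 in bulls, or 7487 and 2350 normalised counts. The level in steers was 3.19-fold that in bulls (95% interval 3.04 to 3.34). Within each library, LPL stood 213th among all genes by raw count in steers and 616th in bulls. LPL was the only one of the 10 genes that the test called upregulated.

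GPIHBP1 holds LPL on the luminal side of capillary endothelium. It had 32 counts in steers and 33 in bulls, or 30.7 and 34.4 normalised counts. On the log2 scale the difference was -0.17 and its interval ran from -0.91 to 0.58 (adjusted p = 0.839 in the exact binomial test). At this depth a difference in either direction within that interval was not detectable. The number of LPL counts per GPIHBP1 count was 244 in steers and 68.3 in bulls. That ratio was 3.58 times as large in steers (95% interval 2.13 to 6.02), and it does not depend on how the libraries are scaled. Transcript length also cancels in such a comparison of ratios. In all 20 such ratios were computed with an interval, and these intervals are not adjusted for that number. Ratios against every adipocyte or endothelial marker, given below, come in addition and have no interval.

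**Figure D2:**
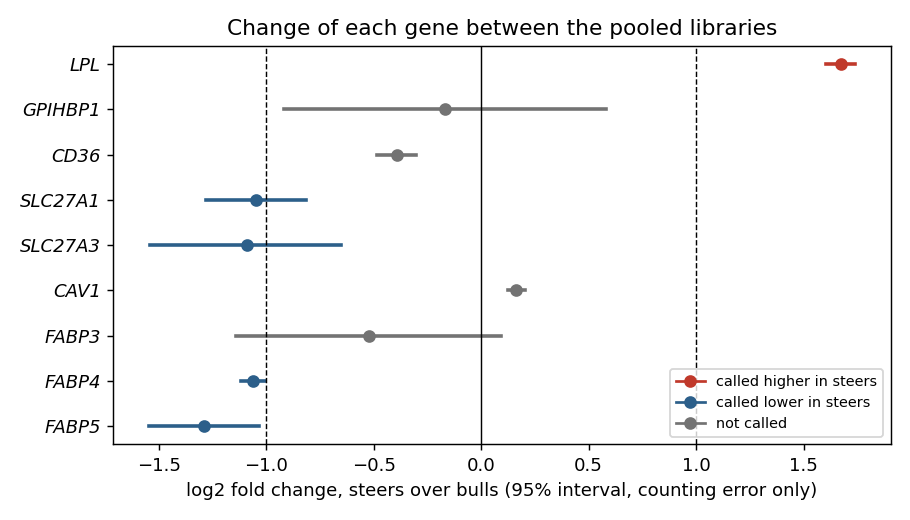
Log2 fold change of each gene, steers over bulls (points), with the 95% interval for counting error (bars); dashed lines mark a 2-fold change. SLC27A4, with 1 count per library, is left out. The bars of LPL, FABP4 and FABP5 lie wholly outside the dashed lines, while those of SLC27A1 and SLC27A3 cross the line at -1.

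CD36 is a scavenger receptor that binds long-chain fatty acids at the surface of adipocytes, muscle cells, macrophages and endothelial cells. Its counts were 1851 in steers and 2232 in bulls, or 1774 and 2329 normalised counts. The log2 fold change was -0.39 (interval -0.48 to -0.30), which lies beyond counting error but under the 2-fold threshold. CD36 was therefore lower in steers by less than the size that was called. CAV1, which forms caveolae in adipocytes and endothelium, had 12066 and 9891 counts, or 11566 and 10319 normalised counts. Its log2 fold change of 0.16 (0.13 to 0.20) was not called, and it turned to -0.075 with scaling by total counts and to -0.13 with scaling by the reference genes. No direction can be given for CAV1.

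Proteins of the SLC27 family are known for fatty acid uptake, for acyl-CoA synthesis or for both, which differs between members. SLC27A1 (FATP1), the form known from fat and muscle, had 235 counts in steers and 446 in bulls, or 225 and 465 normalised counts. It was 2.07-fold lower in steers, at -1.05 (-1.28 to -0.82) on the log2 scale. SLC27A3 had 66 and 129 counts, or 63.3 and 135 normalised counts, and was 2.13-fold lower, at -1.09 (-1.54 to -0.65). Both genes were called downregulated, and both intervals hold values on either side of the 2-fold threshold. Their ratio differed little between the libraries. SLC27A1 counts per SLC27A3 count were 3.56 in steers and 3.46 in bulls, a ratio of 1.03 between libraries with an interval of 0.73 to 1.47. SLC27A4 (FATP4) had 1 count in each library. These counts lie under the floor of 3 counts, so no fold change is given.

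The other members of the family were scarce as well. SLC27A2 had no count in either library. SLC27A5 had 9 counts in steers against 15 in bulls, and SLC27A6 had 4 and 6, and neither was called. SLC27A1 held 74.6% of the family's counts in steers (exact 95% interval 69.4 to 79.3) and 74.7% in bulls (71.0 to 78.1). These shares differed by less than counting error, while SLC27A1, SLC27A3 and SLC27A4 together had 289 normalised counts in steers and 601 in bulls.

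FABP4 (also known as aP2) is the main cytosolic fatty acid carrier of adipocytes. It had 3951 counts in steers and 7574 in bulls, or 3787 and 7902 normalised counts. The level was 2.09-fold lower in steers, with a log2 fold change of -1.06 (-1.12 to -1.01) whose interval ended close to the threshold. FABP5, the epidermal form that is also made by adipocytes and macrophages, had 185 and 415 counts, or 177 and 433 normalised counts. It was 2.44-fold lower, at -1.29 (-1.55 to -1.03), the lowest estimate among the 10 genes. FABP3 had 41 and 54 counts, or 39.3 and 56.3 normalised counts. The estimate for FABP3 was -0.52 on the log2 scale, its interval ran from -1.14 to 0.09 (adjusted p = 0.167 in the exact binomial test), and it was not called.

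The falls of FABP4 and FABP5 could not be separated in size. There were 21.4 FABP4 counts per FABP5 count in steers and 18.3 in bulls, and the ratio between libraries was 1.17 with an interval of 0.98 to 1.41. FABP5 counts per FABP3 count were 4.51 in steers and 7.69 in bulls, a ratio of 0.59 whose interval (0.37 to 0.94) lay below 1. For FABP4 against FABP3 the ratio was 0.69 (0.45 to 1.06), which does not separate them. Among FABP3, FABP4 and FABP5, FABP4 held 94.6% of the counts in steers (exact interval 93.9 to 95.3) and 94.2% in bulls (93.6 to 94.7).

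Of the other FABP genes, FABP7, known from brain, had 41 counts in steers against 57 in bulls and was not called. FABP6 and FABP9 had no count, FABP1 had 0 and 1, and FABP2 had 0 and 2. In RefSeq's annotation of the assembly ARS-UCD2.0, FABP5, PMP2, FABP9 and FABP4 follow each other in this order among protein-coding genes, and FABP12, which is not listed in the count table by that name, comes next. PMP2, the FABP of peripheral myelin, had 8 counts in steers and 0 in bulls. It was called upregulated, at least 2.45-fold higher when bulls are set to the floor of 3 counts, and the lower 95% limit for counting error was 1.57-fold. PAG1, on the other side of FABP5, had 17 and 24 counts and was not called. Next to FABP3, SERINC2 had 629 counts in steers against 283 in bulls and was called upregulated at 1.03 (0.83 to 1.24), and ZCCHC17, with 486 and 315 counts, was not called. None of these neighbours was called downregulated. Those of FABP4 and FABP5 had few counts, no count or no entry by name, so whether the region changed together was not tested.

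**Figure D3:**
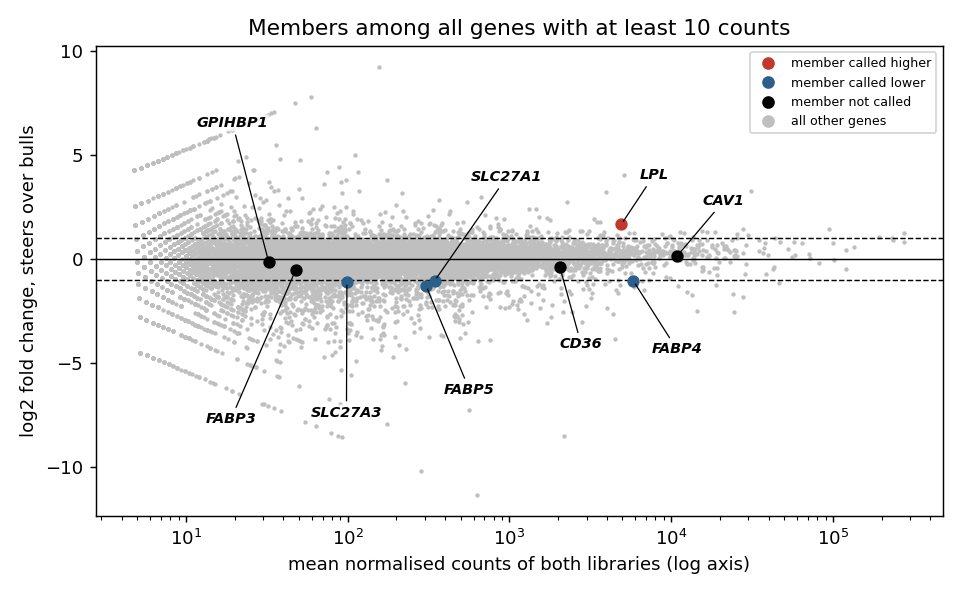
Log2 fold change, steers over bulls (vertical axis, prior of 0.5 counts), against mean normalised counts of both libraries (horizontal log axis) for the 14540 genes with at least 10 counts (grey), with 9 of the described genes marked and named. Among the log2 fold changes of all 17752 genes with a count, more than are drawn, LPL lies at percentile 94.0 and FABP5 at percentile 12.8.

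The steps differed when their genes were summed. LPL and GPIHBP1 together went from 2385 normalised counts in bulls to 7518 in steers, almost all of it LPL. The genes of membrane uptake, most of whose counts were CAV1, had 13248 in bulls and 13630 in steers. The cytosolic FABPs had 8391 in bulls and 4004 in steers. The sum of all 10 genes was 25151 normalised counts in steers and 24024 in bulls. Its direction depends on the scaling, as does that of the membrane genes: as shares of all counts, the 10 genes took 0.207% in steers (0.204 to 0.209) and 0.233% in bulls (0.230 to 0.236), and the membrane genes 0.112% and 0.129%. The make-up of the sum does not depend on it. LPL held 29.8% of the 10 genes' counts in steers (exact interval 29.2 to 30.3) and 9.78% in bulls (9.40 to 10.2), while FABP4 held 15.1% (14.6 to 15.5) and 32.9% (32.3 to 33.5). LPL counts per FABP4 count were 1.98 in steers and 0.297 in bulls, a ratio of 6.65 between the libraries (6.26 to 7.06). The counts are not corrected for transcript length, so they do not rank the genes by level.

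A list of 17 genes that handle LPL or take up lipoproteins was examined alongside, of which 14 were in the table and 10 had a count. In this list 2 genes were called upregulated and 1 was called downregulated, and with scaling by total counts 3 were called downregulated. ANGPTL4, a secreted inhibitor that inactivates LPL, had 120 counts in steers and 773 in bulls. It was 7.01-fold lower in steers, at -2.81 (-3.10 to -2.53) on the log2 scale. LIPG, the endothelial lipase, had 189 and 34 counts and rose by 2.35 (1.82 to 2.92) on the log2 scale. LPL and its inhibitor ANGPTL4 were thus called in opposite directions. LMF1, a chaperone needed for the folding of LPL, was not called, at 0.50 (0.26 to 0.75). The median over the 9 genes of this list with at least 10 counts was 0.46, against 0.01 over all genes. The apolipoprotein genes APOC2, APOC3 and APOA5, known as products of the liver, had no count in either library.

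For caveolae, 8 further genes were listed, and 2 of them were called, both downregulated in steers. CAV3, the caveolin of muscle, had 18 counts in steers against 59 in bulls and was 3.57-fold lower, at -1.83 (-2.68 to -1.05). MURC, a muscle cavin, had 14 and 38 counts and was 2.95-fold lower, at -1.56 (-2.56 to -0.65). The other 6 genes were not called, among them CAV2, the partner of CAV1, and PTRF, the cavin of most cells, and the median of the list was 0.04. Both caveolar genes that were called are those of muscle. Of 9 genes of other endothelial and membrane steps of fatty acid uptake, 1 was called. This was MFSD2A, a transporter of lysophosphatidylcholine carrying long-chain fatty acids, with 71 counts in steers against 6 in bulls, a rise of 3.44 (2.25 to 4.94) on the log2 scale. The median of these 9 genes was 0.28. Both this median and that of the caveolar genes turn below 0 with scaling by the reference genes, which shifts every log2 fold change by -0.30.

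Lists of cell type markers describe the tissue behind these values. All 10 adipocyte markers found in the table had counts in both libraries, and the most counted, RBP4, had 11553 in steers and 8283 in bulls. The list took 0.373% of the counts in steers (exact interval 0.370 to 0.376) and 0.405% in bulls (0.401 to 0.409). In normalised counts its sum was 45337 in steers and 41720 in bulls, so the direction depends on the scaling. The median log2 fold change of the list was 0.15, which also turns below 0 with scaling by the reference genes. Only CIDEA and THRSP of this list were called, both upregulated. Against PLIN1, the coat protein of adipocyte lipid droplets, LPL was 4.15 times as high in steers as in bulls (3.90 to 4.41) and FABP4 was 0.62 times as high (0.59 to 0.66). For CD36 against PLIN1 the ratio was 0.99 (0.92 to 1.07). Against the adipokine gene ADIPOQ, LPL was 5.11 times as high (4.81 to 5.43), CD36 1.22 times (1.14 to 1.31) and FABP4 0.77 times (0.73 to 0.81). These ratios depend on the marker, since ADIPOQ itself was at -0.68 (-0.74 to -0.63) and PLIN1 at -0.38 (-0.44 to -0.32) on the log2 scale, below most markers of the list. Over all 10 adipocyte markers the ratio for LPL ran from 0.47 (against CIDEA) to 5.11 (against ADIPOQ), with a median of 2.88, and it was above 1 for 8 of them, CIDEA and THRSP being the exceptions. For FABP4 it was below 1 against all 10 markers, from 0.071 to 0.77 with a median of 0.43. CD36 had a ratio below 1 against 8 of the 10, with a median of 0.69, and only ADIPOQ and PLIN4 gave a value above 1.

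Endothelial cells carry GPIHBP1 and also contain CAV1, CD36 and FABP4. None of 12 endothelial markers was called, since no change was over 2-fold, although 7 of the 12 had an unadjusted p under 0.05 in the exact binomial test and the same number an adjusted one. Their median was -0.18 and they took 0.0910% of the counts in steers (0.0894 to 0.0927) and 0.110% in bulls (0.108 to 0.112). In normalised counts their sums were closer, 11060 in steers and 11315 in bulls. PECAM1, the most counted, had 4541 and 3723 counts. CAV1 counts per PECAM1 count were 2.66 in both libraries, a ratio of 1.00 (0.95 to 1.05), and the ratio for GPIHBP1 against PECAM1 was 0.80 (0.47 to 1.34). PECAM1, at 0.16 on the log2 scale, was among the 4 endothelial markers above 0. Against all 12 markers the ratio for CAV1 ran from 0.73 (ROBO4) to 1.77 (TEK) with a median of 1.27, and that for GPIHBP1 from 0.58 to 1.41 with a median of 1.01. The interval for GPIHBP1 is wide, and a moderate difference in either direction was not detectable.

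Macrophage markers were mostly lower in steers. Of 12 macrophage markers, 10 were called downregulated and the median was -1.70. Together they took 0.269% of the counts in steers (0.266 to 0.272) and 0.880% in bulls (0.874 to 0.886). CD74, the most counted, had 12658 and 41520 counts. By itself it made up 0.0998% of all counts in steers and 0.421% in bulls, a large part of those shares. FABP4, FABP5 and CD36 are made by macrophages as well as adipocytes. The macrophage markers moved in the direction of FABP4 and FABP5, and their part in the fall of these genes was not tested. Of 12 skeletal muscle markers, 4 were called downregulated and 1, MYH1, was called upregulated, with a median of -0.66. The 4 were MYH7 (-2.23), TNNT1 (-2.01), MYBPC1 (-1.28) and DES (-1.26). In the main scaling MYH1 (1.15), TNNT3 (0.11) and MYH2 (0.01) were above 0, so the muscle markers did not share a direction. With scaling by total counts 0 muscle markers were called upregulated. The 12 markers made up 0.275% of the counts in steers (0.272 to 0.277) and 0.541% in bulls (0.537 to 0.546), and ACTA1 had 13852 and 19910 counts. FABP3, SLC27A1, CD36 and LPL are also made by muscle fibres. LPL rose, while all 12 macrophage markers and 9 of the 12 muscle markers had log2 fold changes below 0. What muscle and macrophage RNA contributed to the level of LPL was not tested. The part of muscle RNA in the fall of SLC27A1 was not tested either. No marker of these lists that was in the table had a count of 0 in either library.

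**Figure D4:**
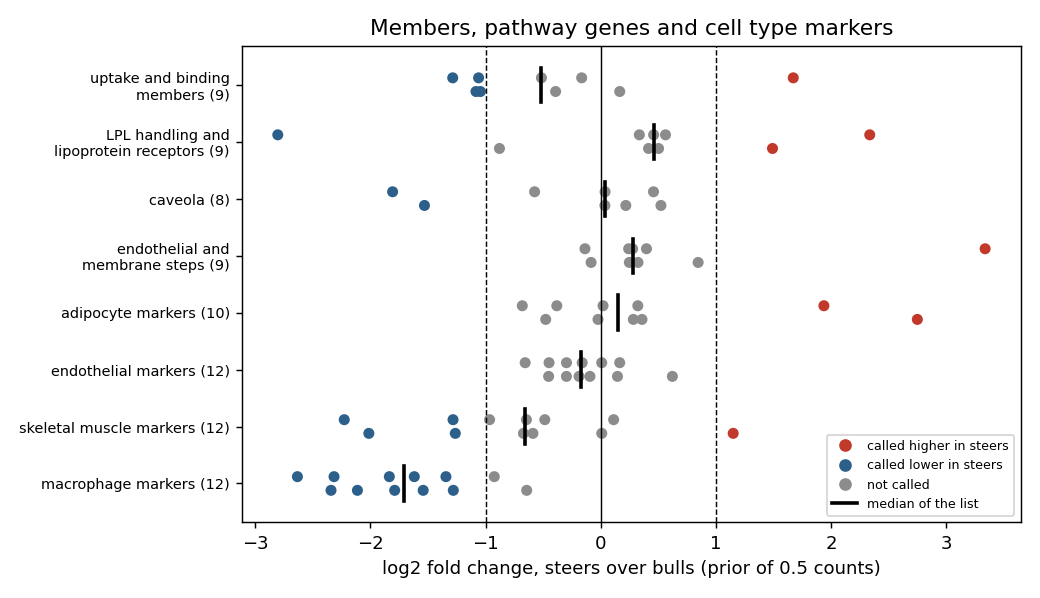
Log2 fold change, steers over bulls (horizontal axis, prior of 0.5 counts), of each gene with at least 10 counts in 8 lists, with the number of genes in parentheses and a bar at the median. Macrophage markers lie lowest with a median of -1.70, and adipocyte and endothelial markers lie around 0 with medians of 0.15 and -0.18.

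The calls were the same 5 genes under 6 scalings of the libraries. Relative to the main scaling, the others shifted every log2 fold change by between -0.30 and 0.015. They could therefore hardly undo a downregulated call. The log2 fold change of LPL lay between 1.37 and 1.69 over these scalings, that of FABP4 between -1.36 and -1.05, and that of FABP5 between -1.59 and -1.27. SLC27A1 lay between -1.35 and -1.03 and SLC27A3 between -1.39 and -1.07. CD36 stayed below 0, between -0.69 and -0.38, in all 6. The spread between animals is unknown here, and it decides the calls. With an assumed biological coefficient of variation of 0.2 in edgeR's exact test, LPL and FABP5 were called, while FABP4, SLC27A1 and SLC27A3 were not. The call of FABP5 there was marginal, only just within the limit of 0.05 on the adjusted p. At 0.4 none of the 10 genes was called by edgeR.

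**Figure D5:**
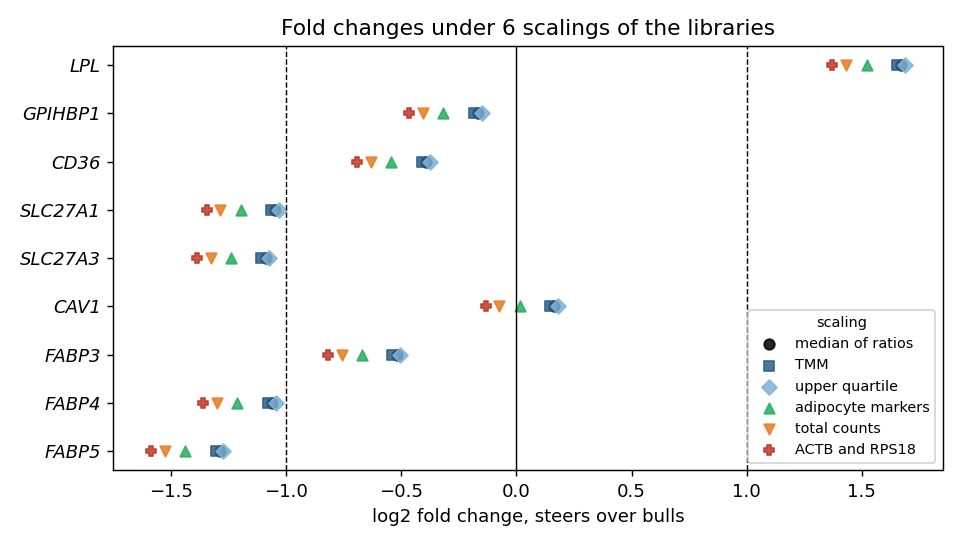
Log2 fold change of 9 genes, steers over bulls (horizontal axis), under 6 scalings of the libraries (symbols); dashed lines mark a 2-fold change. LPL stays right of the upper line and FABP4, FABP5, SLC27A1 and SLC27A3 left of the lower line under all 6, whereas CAV1 falls on either side of 0.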

How the data were processed

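The mRNA counts, as deposited by the authors, are raw counts per gene from an Ion Proton sequencer. The study removed adaptors and low-quality reads and aligned the rest to the bovine genome (version 4.6.1) with MapSplice 2.1.8. The submitters' processing notes name BWA and GRCh37.p13, a human build, without a role. How reads were counted, and whether by strand, is not given in the sources used here, so genes that share or overlap reads with others are uncertain. Small RNA counts were not used here.

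Libraries were grouped by their labels. Size factors (median of ratios) were computed with numpy 2.4.6. Counts were scaled by them and compared with the exact binomial test of scipy 1.17.1. The test was tried on data simulated with counting error only, so that trial does not cover spread between animals. A count of 0 entered the fold threshold at a floor of 3 counts. Intervals are 95% Clopper-Pearson. Those of ratios between 2 genes are exact conditional, or Woolf's for large counts. List medians use a prior of 0.5 counts. Alternatives were 5 other scalings, a minimum of 10 counts, edgeR 4.0.16 under R 4.3.3 with assumed coefficients of variation (0.1, 0.2, 0.4) and no fold threshold. The 10 genes and the lists were chosen with earlier results of these data known. Some genes of the lists are counted but not reported here by name. Named are these 10, other called pathway genes, neighbours of the FABP genes and the most counted markers, and others were named after their values were seen. RefSeq symbols matched 17015 of 25444 identifiers, and 1037 matched as synonyms. MRC1 was matched by its gene identifier. The study's EBSeq was not used.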

Additional observations from a re-analysis of the deposited data

How the results depend on the processing

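The number of the 10 genes called upregulated was 1 and the number called downregulated was 4, and the genes called were the same under all 6 scalings, with a minimum of 10 counts and with an assumed biological coefficient of variation of 0.1. With an assumed coefficient of 0.2 in edgeR's exact test, 1 was called downregulated (FABP5, marginally), and with 0.4 the numbers were 0 and 0. Without a fold threshold 2 were upregulated, since CAV1 was added, and CD36 was added to the downregulated. The log2 fold change of CAV1 reversed to -0.075 with total counts and to -0.13 with ACTB and RPS18. Over all genes, 827 were called upregulated and 1509 downregulated. These numbers became 368 and 762 with a coefficient of 0.2, 52 and 93 with 0.4, and 3619 and 3354 without a fold threshold, and with ACTB and RPS18 the upregulated were 497. Relative to the main scaling, every log2 fold change shifted by -0.24 with total counts, by -0.30 with ACTB and RPS18 and by -0.15 with adipocyte markers. The only upward shift was 0.015, with upper quartile, so the scalings hardly put the downregulated calls at risk. With total counts 3 genes of LPL handling were downregulated and 0 muscle markers upregulated. Shares per coding length were not run, since no transcript lengths were at hand. No paired analysis was possible because each group had 1 mRNA library. Depth limits GPIHBP1, FABP3 and SLC27A4.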
